A study of Mus musculus with 16 samples.

Results

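The effect of losing Brg1 that 2 neurogenic tissues of the adult mouse brain have in common was measured as 1 genotype term over all 16 arrays of the series, with the tissue as a second, additive term. The groups were 3 conditional knockout (cKO) and 5 control arrays from the core of the olfactory bulb (OB), and 3 cKO and 5 control arrays from the subependymal zone (SEZ). The cKO mice were GlastCreERT2/Brg1fl/fl, with 2 floxed copies of Brg1, and the controls were GlastCreERT2/Brg1fl/+, with 1 floxed copy, except that SEZ control replicate 5 is labelled GlastCreERT2/Brg1+/+, with 0 floxed copies. All mice carried the tamoxifen-dependent recombinase CreERT2 at the Glast locus (gene Slc1a3), which is active in astrocytes and neural stem cells, were 2.5 months old, and had a mixed C57BL/6 and CD1 background. The labels state no treatment and no sex, and when recombination was induced is not stated in them. Because the group sizes are equal in both tissues, the genotype term is the mean of the OB effect and the SEZ effect, each being cKO minus control on the log2 scale.

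Smarca4 encodes Brg1, the motor subunit of chromatin remodelling complexes of the SWI/SNF family, which move and evict nucleosomes. In the adult forebrain, stem cells of the SEZ give rise to dividing progenitors and then to neuroblasts, which migrate to the OB and mature into interneurons there. Genes of dividing progenitors are known mainly from the SEZ, and genes of late neuroblasts and young interneurons from both places. The comparison asks which genes were lower or higher in cKO mice regardless of the tissue.

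The tissue labels were checked against markers. The mean level of 16 measured mitral and tufted cell markers lay between 9.61 and 9.89 on OB arrays and between 8.30 and 8.73 on SEZ arrays, and the mean level of 20 striatal projection neuron markers, which border the SEZ, lay between 8.44 and 8.56 on OB arrays and between 11.6 and 11.9 on SEZ arrays. Array medians ran from 7.45 to 7.65. Some arrays stood apart within their groups. In cKO replicate 3 of both tissues, Slc1a3 was at 8.85 (OB) and 8.16 (SEZ), while the other 14 arrays lay between 11.2 and 12.3. Xist, which marks female tissue, was above 9 on 1 of 3 OB cKO, 2 of 3 SEZ cKO, 2 of 5 OB control and 2 of 5 SEZ control arrays, and the OB and SEZ arrays of cKO replicate 1 did not match each other. The vesicular glutamate transporter gene Slc17a7, a marker of cortical excitatory cells, reached 10.58 (SEZ control replicate 2) and 11.06 (SEZ control replicate 4), and the remaining SEZ arrays had 7.84 to 8.98. Smarca4 itself was at 11.00, 10.97 and 11.09 in OB cKO and 11.01, 11.01, 10.95, 11.03 and 11.06 in OB control arrays, and at 10.73, 10.62 and 10.77 in SEZ cKO and 10.71, 10.66, 10.78, 10.71 and 10.70 in SEZ control arrays. The groups overlapped in both tissues, with a genotype term of -0.0035 (SE 0.041). The value covers the whole transcript, and cells without recombination contribute to it, so the deletion cannot be checked from it.

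Of 19938 genes tested, 0 were lower (0%) and 0 were higher (0%) in cKO at an adjusted p under 0.05 (limma, Benjamini-Hochberg). The lowest adjusted p was 0.201, shared by 8 genes, all lower in cKO, and the lowest adjusted p of a gene higher in cKO was 0.910. Of all genes, 49.6% had a genotype term below 0. Without adjustment, 939 genes (4.71%) had a p under 0.05, against 996.9 expected for as many tests of genes with no difference. These 939 split into 617 lower (3.09%) and 322 higher (1.62%), and into 644 and 137 once every array was centred on its median. Of the 50 smallest p, 47 belonged to genes lower in cKO. The counts moved with single arrays in both directions. Without OB cKO replicate 3 they were 298 lower and 185 higher genes, and without cKO replicate 3 of both tissues they were 304 and 184. Without SEZ control replicate 1 they were 810 and 636. The arrays with Xist at or below 9 gave 1472 and 955, and those with Xist above 9 gave 355 and 149. OB and SEZ arrays of 1 genotype and number may share a mouse, other than those of cKO replicate 1 and, by their genotype labels, of control replicate 5. With genotype and number as a random block, the counts were 412 and 173 and the lowest adjusted p was 0.563. All values of single genes and lists below are therefore descriptions of genes that did not pass the test, unless a passing test is named.

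The 8 genes with the smallest p were B3gnt5, Smc4, Ezh2, Scp2, Faap24, Mcm7, Gng2 and Dcx, each with an adjusted p of 0.201. Their genotype terms lay between -0.26 and -0.48, which is 16.3% to 28.5% less signal in cKO. They belong to chromosome compaction (Smc4), the replicative helicase (Mcm7), repair of DNA crosslinks (Faap24), histone methylation by polycomb (Ezh2), glycolipid synthesis (B3gnt5), sterol and lipid transfer (Scp2), G protein signalling (Gng2) and the microtubules of migrating neuroblasts (Dcx). In each of these 8 genes the OB effect and the SEZ effect were both below 0 with an unadjusted p under 0.05.

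**Figure D1:**
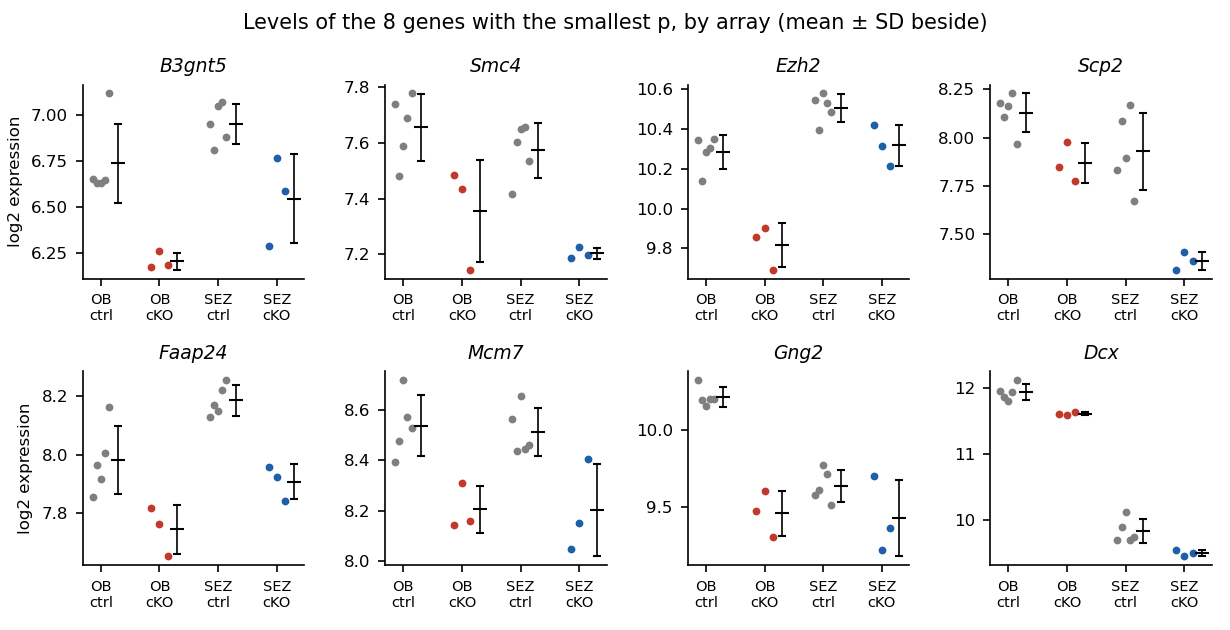
Log2 expression of the 8 genes with the smallest p on each array, for OB control and OB cKO and for SEZ control and SEZ cKO. Each point is 1 array, the bar beside it is the mean ± SD, and each panel has its own vertical scale. B3gnt5, Faap24, Mcm7 and Dcx have no overlap between cKO and control in OB or in SEZ.

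B3gnt5, a glycosyltransferase that starts lacto-series glycolipids, was at 6.17, 6.26 and 6.18 in OB cKO against 6.65, 6.63, 6.63, 6.65 and 7.12 in OB control arrays, and at 6.28, 6.76 and 6.58 in SEZ cKO against 6.95, 6.81, 7.05, 7.07 and 6.88 in SEZ control arrays. All cKO arrays were below all controls of their tissue, although the level is near the lower end of the array's range, where the lower quartile of all values is 5.99. Its genotype term was -0.47 (95% interval -0.64 to -0.30), made of an OB effect of -0.53 and an SEZ effect of -0.41.

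Dcx, the doublecortin of neuroblasts, was at 11.61, 11.59 and 11.63 in OB cKO against 11.95, 11.87, 11.80, 11.93 and 12.12 in control arrays, and at 9.54, 9.45 and 9.50 in SEZ cKO against 9.69, 9.89, 10.12, 9.69 and 9.74 in control arrays. The cKO arrays were the lowest in both tissues and varied less among themselves than the controls did. The OB effect of -0.32 and the SEZ effect of -0.33 were nearly equal, and the genotype term was -0.33 (SE 0.064), 20.4% less signal.

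Mcm7, a subunit of the helicase that unwinds DNA for replication, was at 8.14, 8.31 and 8.16 in OB cKO against 8.39, 8.47, 8.72, 8.57 and 8.53 in control arrays, and at 8.05, 8.15 and 8.40 in SEZ cKO against 8.56, 8.44, 8.65, 8.44 and 8.46 in control arrays. Every cKO array was below every control of its tissue, with SEZ cKO replicate 3 closest to the controls. Faap24, a member of the Fanconi anaemia repair complex, had the same separation, at 7.82, 7.76 and 7.65 in OB cKO against 7.86, 7.96, 7.92, 8.01 and 8.16 in control arrays, and at 7.96, 7.92 and 7.84 in SEZ cKO against 8.13, 8.17, 8.15, 8.22 and 8.26 in control arrays. Mcm7 had effects of -0.33 in OB and -0.31 in SEZ, and Faap24 of -0.24 and -0.28.

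Smc4, a condensin subunit that compacts mitotic chromosomes, was at 7.48, 7.43 and 7.14 in OB cKO against 7.74, 7.48, 7.59, 7.69 and 7.78 in control arrays, and at 7.19, 7.23 and 7.20 in SEZ cKO against 7.42, 7.60, 7.65, 7.66 and 7.54 in control arrays. The groups touched in OB and were apart in SEZ, and the genotype term was -0.33 (SE 0.061).

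Ezh2, Scp2 and Gng2 were lower in both tissues but by unequal amounts. Ezh2, the histone methyltransferase of polycomb repressive complex, was at 9.86, 9.90 and 9.69 in OB cKO against 10.35, 10.14, 10.28, 10.31 and 10.35 in control arrays, and at 10.42, 10.32 and 10.22 in SEZ cKO against 10.54, 10.40, 10.58, 10.53 and 10.49 in control arrays. Only SEZ cKO replicate 1 reached into the control range, and the effects were -0.47 in OB and -0.19 in SEZ. Scp2, a sterol carrier protein, leaned the other way, with effects of -0.26 in OB and -0.57 in SEZ. It was at 7.32, 7.41 and 7.36 in SEZ cKO against 7.83, 8.09, 7.89, 8.17 and 7.67 in control arrays, and at 7.85, 7.98 and 7.78 in OB cKO against 8.18, 8.10, 8.16, 8.23 and 7.97 in control arrays, where the groups touched. Gng2, a gamma subunit of heterotrimeric G proteins, was at 9.47, 9.60 and 9.31 in OB cKO against 10.33, 10.19, 10.15, 10.20 and 10.20 in control arrays, and at 9.70, 9.22 and 9.36 in SEZ cKO against 9.58, 9.61, 9.77, 9.71 and 9.51 in control arrays. SEZ cKO replicate 1 lay among the controls, and the effects were -0.76 and -0.21. The difference between the tissue effects did not pass for Ezh2, Scp2 or Gng2 (adjusted p of 1.00 each).

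Promoters of the leading genes were read to show the sequence in front of them. No gene passed the test, so the 4 genes of smallest p with an entry in the RefSeq promoter table (build GRCm38.p6) are given, a choice made after their values were seen. The 250 bases before the start of the gene are written 5′ to 3′ in the direction of the gene, with capitals at each match, on either strand, to any of 5 motifs. The first is the core of E2F sites known from cell cycle genes, spelled TTCCCGC. The second is CCAAT itself. The GC box is spelled GGGCGG here. Of the E-boxes known for proneural factors, the first is spelled CAGCTG here. The other is spelled CATCTG here. No match overlapped a match to another motif.
B3gnt5 (chr16:19759984-19760233, plus strand): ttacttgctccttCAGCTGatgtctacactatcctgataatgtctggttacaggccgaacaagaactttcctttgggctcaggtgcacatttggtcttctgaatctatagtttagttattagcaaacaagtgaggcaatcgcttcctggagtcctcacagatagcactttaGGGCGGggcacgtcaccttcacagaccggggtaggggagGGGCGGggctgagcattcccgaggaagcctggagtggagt
Ezh2 (chr6:47595031-47595280, minus strand): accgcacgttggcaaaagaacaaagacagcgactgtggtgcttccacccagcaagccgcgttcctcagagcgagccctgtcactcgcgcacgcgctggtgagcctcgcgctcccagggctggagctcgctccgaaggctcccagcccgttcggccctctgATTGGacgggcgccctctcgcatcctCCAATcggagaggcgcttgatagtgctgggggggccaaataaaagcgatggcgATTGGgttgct
Scp2 (chr4:108118548-108118797, minus strand): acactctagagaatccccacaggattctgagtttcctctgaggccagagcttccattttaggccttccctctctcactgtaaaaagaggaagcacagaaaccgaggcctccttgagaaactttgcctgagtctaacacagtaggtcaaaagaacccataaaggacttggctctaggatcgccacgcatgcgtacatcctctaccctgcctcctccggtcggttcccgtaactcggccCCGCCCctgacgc
Faap24 (chr7:35396768-35397017, minus strand): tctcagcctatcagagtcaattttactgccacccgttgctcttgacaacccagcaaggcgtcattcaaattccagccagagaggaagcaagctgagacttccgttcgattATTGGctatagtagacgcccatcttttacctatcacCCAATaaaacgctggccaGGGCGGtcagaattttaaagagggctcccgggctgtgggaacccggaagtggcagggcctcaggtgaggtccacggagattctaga
B3gnt5 held 2 GC boxes and 1 CAGCTG, Ezh2 held 3 CCAAT matches, Scp2 held 1 GC box, and Faap24 held 2 CCAAT matches and 1 GC box. Over all 27025 promoters of this length (1 per gene, the most upstream start), 3.86% held TTCCCGC, 34.5% CCAAT, 33% GGGCGG, 12.7% CAGCTG and 14.5% CATCTG. Over the 15614 promoters of genes tested here, the shares in the same order were 5.36%, 35.6%, 46%, 12.2% and 12.1%. Among 22 promoters of measured DNA replication genes the shares were 31.8%, 59.1%, 68.2%, 0% and 9.09% in the same order, among 26 of the mitosis list they were 0%, 76.9%, 76.9%, 15.4% and 7.69%, and among 17 of the neuroblast list they were 0%, 58.8%, 52.9%, 17.6% and 0%. A match is a run of letters, not a bound site, and these shares were not tested.

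Lowering in both tissues was described by a stricter count, which asks for an unadjusted p under 0.05 and the same sign in each tissue of a fit with 4 groups. By that count 27 genes were lower in both tissues (0.135% of genes tested), 1 was higher in both (0.00502%) and 4 had opposite signs (0.0201%). The 27 included, beside the 8 genes above, Cdca7, Dusp4, Mcm5, Stmn2, H2bc3, Olfml3, Marcksl1, Nt5dc2 and Cks1b, which were named after their values were seen. Cdca7, a cell cycle regulated chromatin protein, had the lowest genotype term of the 27, at -0.53 (SE 0.113), with effects of -0.54 in OB and -0.51 in SEZ. It was at 9.62, 9.43 and 9.44 in OB cKO against 10.30, 9.78, 9.99, 9.90 and 10.21 in control arrays, and at 9.06, 9.20 and 9.35 in SEZ cKO against 9.88, 9.60, 10.25, 9.35 and 9.48 in control arrays. The arrays were apart in OB and touched in SEZ.

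The other genes of that count have a few known roles. Mcm5, a helicase subunit like Mcm7, had a genotype term of -0.22 and no overlap between cKO and control in OB or in SEZ. Cks1b, a subunit of cyclin-dependent kinases, had a term of -0.24, and H2bc3, a histone whose probe set may share near-identical histone genes, -0.36. Marcksl1, an actin-binding protein of growing neurites, had effects of -0.39 in OB and -0.46 in SEZ, and Stmn2, a stathmin that binds tubulin, of -0.32 and -0.24. Dusp4, a phosphatase of MAP kinases, had a term of -0.46, Nt5dc2 of -0.48 and the secreted protein Olfml3 of -0.37. The count itself moved with single arrays: it was 9 without cKO replicate 3 of both tissues, of which 5 were among the 27, 15 without OB cKO replicate 3, and 46 without cKO replicate 1 of both tissues. Under each of the settings run for this count, all 27 genes kept effects below 0 in both tissues. The 27 were picked for low values on these same arrays, so their kept sign is not a separate check.

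Counted by arrays, 12 genes (0.0602%) had every cKO array below every control in both tissues and 2 (0.01%) had every cKO array above. Of the 12, B3gnt5, Faap24, Mcm7, Mcm5 and Dcx are described above.

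**Figure D2:**
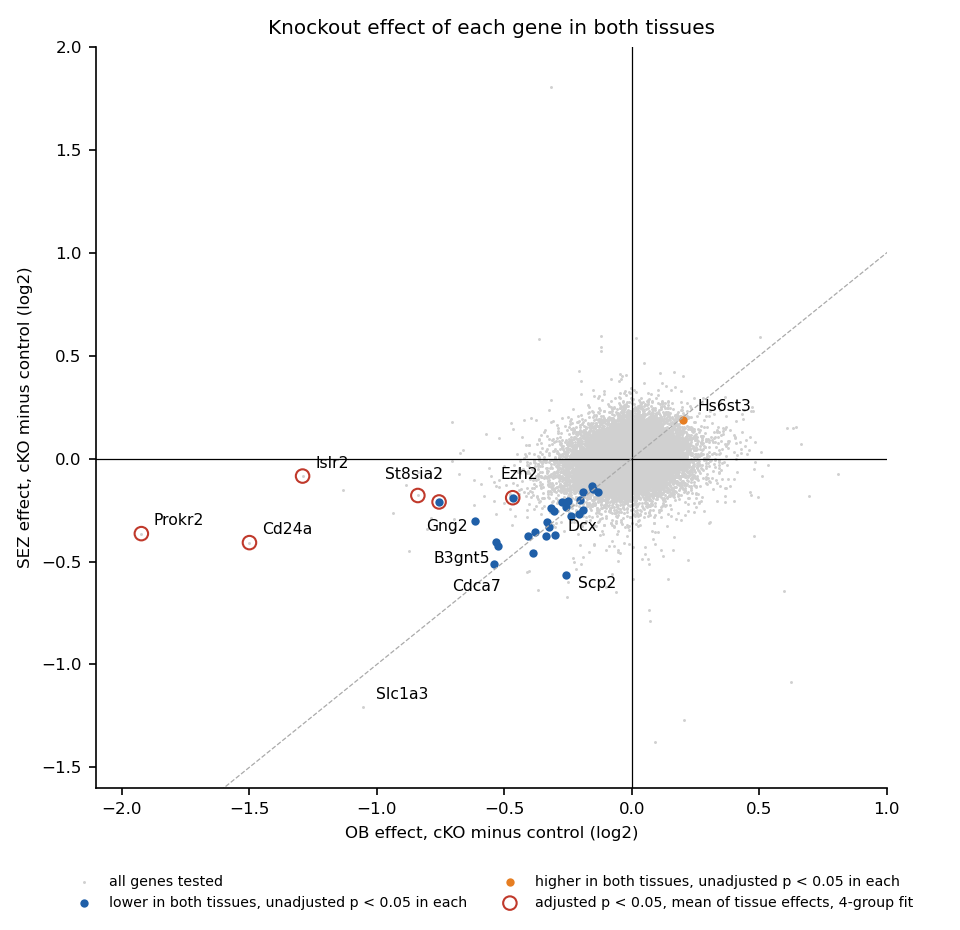
Effect of the knockout on each of 19938 genes in OB (horizontal axis) and in SEZ (vertical axis), as cKO minus control on the log2 scale, 1 point per gene, with a dashed line where both are equal. The 27 genes lower in both tissues (blue) have a mean of both effects from -0.14 to -0.53, while Prokr2, Cd24a and Islr2 (red rings) lie far to the left, at -1.92, -1.50 and -1.29 in OB and at -0.36, -0.41 and -0.08 in SEZ.

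Over all genes the effects of the tissues were weakly alike. The correlation of the OB effect with the SEZ effect across 19938 genes was 0.197, and 55.9% of genes had the same sign in both. This is a description across genes that are not independent, and most OB and SEZ arrays of the same number may come from the same mouse. Of 527 genes lower in OB at an unadjusted p under 0.05, 418 (79.3%) were below 0 in SEZ, and of 201 genes lower in SEZ, 147 (73.1%) were below 0 in OB. Among genes higher in 1 tissue these shares were 68.2% of 173 genes from OB and 58.8% of 291 genes from SEZ.

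The additive model treats a difference between the tissue effects as spread, and a fit with 4 groups does not. There the mean of the tissue effects passed the test (adjusted p under 0.05) for 6 genes, all lower (0.0301%), and for 0 higher genes. They were Islr2 (adjusted p 0.0020), Prokr2 (0.0065), Gng2 (0.0209), Cd24a (0.0213), St8sia2 (0.0347) and Ezh2 (0.0355). This fit treats all arrays as independent, though some may share a mouse. With OB and SEZ averaged per number, 3 cKO against 5 control, only Islr2 of the 6 passed (limma, adjusted p 0.034). In all 6 the OB effect was the larger, so a low mean of both tissues does not by itself place a gene in the shared group. Islr2, a membrane protein of growing axons, had an OB effect of -1.29 and an SEZ effect of -0.08, and it was the 1 gene (0.00502%) whose tissue effects differed at an adjusted p under 0.05, by 1.21 (SE 0.153, adjusted p 0.0117). Without adjustment, 296 genes (1.48%) had a p under 0.05 for that difference. Without OB cKO replicate 2 or 3, or SEZ cKO replicate 1 or 3, no gene passed for that difference, and without SEZ control replicate 3 Prokr2 passed too.

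Neuroblast and young interneuron genes held many low values. This list, like the others here, was chosen with earlier results of these data known, so its counts are not independent evidence. Of 29 measured members, 27 had a genotype term below 0, 16 were lower at an unadjusted p under 0.05 and 0 were higher, against 3.09% lower and 1.62% higher over all genes. The median was -0.22 against 0.0007 over all genes. Within tissues it was -0.20 in OB and -0.13 in SEZ, and 22 of the 29 were below 0 in both tissues, against 5580 of 19938 genes. The mean level of the list was 10.23 to 10.45 in OB cKO against 10.68 to 10.84 in OB control arrays, and 9.81 to 9.85 in SEZ cKO against 9.92 to 10.11 in SEZ control arrays, so the arrays were apart in both tissues. The count stayed between 15 and 18 when any 1 array was left out, was 15 without cKO replicate 3 of both tissues and 17 without SEZ control replicates 2 and 4, and was 8 on the 7 arrays with Xist above 9 (1 of them OB cKO) and 14 on the other 9. In whole tissue, fewer neuroblasts and less RNA per neuroblast cannot be told apart.

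Cd24a, a surface glycoprotein of neuroblasts and ependymal cells, was at 9.06, 8.57 and 8.44 in OB cKO against 10.23, 9.87, 10.60, 9.86 and 10.38 in control arrays, and at 9.19, 9.15 and 9.30 in SEZ cKO against 9.73, 9.17, 10.14, 9.58 and 9.47 in control arrays. The OB arrays were far apart, the SEZ arrays touched through control replicate 2, and the genotype term was -0.95 (95% interval -1.35 to -0.55). Prokr2, the receptor of prokineticin, which guides neuroblasts to the bulb, was at 9.35, 9.69 and 9.02 in OB cKO against 11.36, 10.97, 11.16, 11.34 and 11.55 in control arrays, and at 8.27, 8.54 and 8.07 in SEZ cKO against 8.88, 8.40, 9.28, 8.25 and 8.47 in control arrays. Its term of -1.14 came from an OB effect of -1.92 and an SEZ effect of -0.36 whose interval reached 0.07.

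The remaining members named here had unequal estimates in the tissues, but for none of them did the difference pass (adjusted p 1.00 each). Tubb2b, a neuronal tubulin whose probe set may share near-identical tubulin genes, had effects of -0.58 in OB and -0.18 in SEZ. St8sia2, which adds polysialic acid to neuroblast surfaces, had -0.84 and -0.18, Sox4 had -0.49 and -0.13, and Nrep had -0.71 and -0.01. Dlx1 and Dlx2, homeobox genes of interneuron progenitors, had -0.08 and -0.56 for Dlx1 and -0.20 and -0.42 for Dlx2. Of 29 members, 3 met the count for both tissues: Dcx, Stmn2 and Marcksl1.

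**Figure D3:**
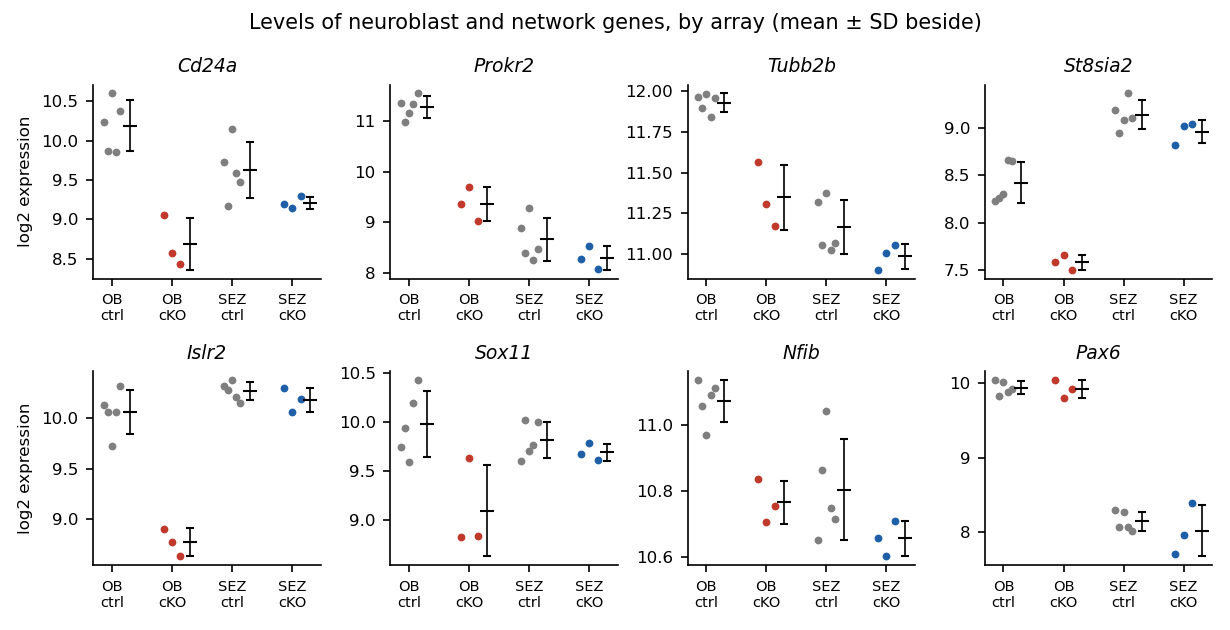
Log2 expression on each array of neuroblast genes (Cd24a, Prokr2, Tubb2b and St8sia2), of Islr2 and of 3 genes of the neurogenic network (Sox11, Nfib and Pax6), with the mean ± SD beside the points and a separate vertical scale in each panel. OB cKO arrays lie below OB controls for Cd24a, Prokr2, Tubb2b, St8sia2, Islr2 and Nfib, and the SEZ groups overlap in all 8 panels.

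The neurogenic network of the study (Pax6, Sox11, Nfib and Pou3f4, all transcription factors) was chosen on these samples, so its direction is not independent evidence. Of its 4 genes, 4 had a genotype term below 0, 3 were lower at an unadjusted p under 0.05 and 0 met the count for both tissues. The shares over all genes were 49.6%, 3.09% and 0.135%. Nfib, a nuclear factor of neuronal maturation, had a term of -0.23 (SE 0.058), with -0.31 in OB and -0.15 in SEZ. Sox11, a factor of immature neurons, had -0.51 (SE 0.159), with -0.89 and -0.13, and Pou3f4 had -0.24 (SE 0.091), with -0.38 and -0.10. Pou3f4 was at -0.10 without cKO replicate 3 of both tissues, and there 2 of the 4 genes had an unadjusted p under 0.05. Pax6 had a term of -0.07, with a 95% interval from -0.24 to 0.11.

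DNA replication genes were low in both tissues by small amounts. Of 25 measured, 21 had a genotype term below 0, 8 were lower at an unadjusted p under 0.05 and 0 were higher, with a median of -0.07, and medians of -0.10 in OB and -0.08 in SEZ. Over all genes, 49.6% had a term below 0, 3.09% were lower and 1.62% were higher. Mcm7 and Mcm5 met the count for both tissues. Pcna, the sliding clamp of DNA polymerase, had effects of -0.44 in OB and -0.17 in SEZ, and Chaf1b, of the chromatin assembly factor, of -0.18 and -0.31. The mean level of the list was 7.70 to 7.72 in SEZ cKO against 7.81 to 7.86 in SEZ control arrays, and 7.56 to 7.68 in OB cKO against 7.63 to 7.79 in OB control arrays, so the arrays were apart in SEZ and overlapped in OB. The count of 8 was 5 without cKO replicate 3 of both tissues and 5 without SEZ cKO replicate 3. It was 1 on the 7 arrays with Xist above 9, 9 on the other 9 arrays, and 4 among genes above the median level.

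Mitosis genes had lower estimates in SEZ than in OB, where the mean level of the list was 6.33 to 6.44 in control and 6.38 to 6.41 in cKO arrays, against a lower quartile of all values of 5.99. Of 29 measured, 26 had a term below 0, 11 were lower at an unadjusted p under 0.05 and 0 were higher. Among all genes, 49.6% had a term below 0, 3.09% were lower and 1.62% were higher. The median of the list was -0.12, but it was -0.02 in OB against -0.23 in SEZ, and 0 members met the count for both tissues. For none of the mitosis genes named here did the difference between tissues pass (adjusted p 0.46 for Ccna2 and 1.00 for the others). Top2a, a topoisomerase of dividing cells, was at 7.02, 7.40 and 7.23 in SEZ cKO against 7.79, 7.67, 7.72, 7.55 and 7.85 in control arrays, and at 6.19, 6.44 and 6.43 in OB cKO against 6.25, 6.51, 6.22, 6.55 and 6.50 in control arrays. Its SEZ effect was -0.50 and its OB effect -0.06. The proliferation marker Mki67 had -0.49 in SEZ and 0.04 in OB, Sgo2a, which protects cohesion of chromatids, -0.49 and 0.07, Nusap1 of the spindle -0.46 and -0.04, and cyclin A gene Ccna2 -0.59 and 0.14. Kif11, a spindle motor, had -0.51 and -0.20, and Tpx2 had -0.26 and -0.08. The count of 11 ranged from 6 to 13 when 1 array was left out, being 7 without SEZ cKO replicate 1, 6 without SEZ cKO replicate 2, 6 without SEZ cKO replicate 3 and 7 without SEZ control replicate 4. It was 3 on the 7 arrays with Xist above 9 and 5 on the other 9. With OB and SEZ arrays of 1 number as a random block it was 7. Among genes above the median level, a smaller set of genes, it was 0, with a list median of -0.03. In that set 433 of 9969 genes were lower. How many members of this list or of the DNA replication list it holds was not counted, so the 0 is not read as a loss of the lowering.

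**Figure D4:**
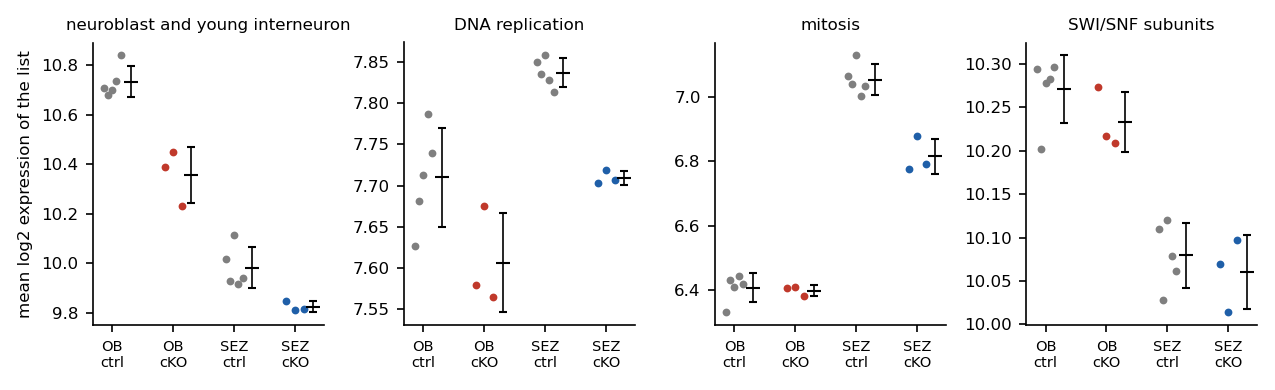
Mean log2 expression of the members of 4 gene lists on each array, with the mean ± SD of each group beside the points and a separate vertical scale in each panel. The neuroblast list is lower in cKO in both tissues without overlap, the DNA replication and mitosis lists are apart in SEZ only, and the SWI/SNF subunits overlap in both tissues.

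The remaining chromatin, migration and pathway lists described next had at most 6 low members each. Their counts are to be read against the 3.09% of all genes that were lower at an unadjusted p under 0.05. Nothing is read from counts of 3 or fewer, whose members are given as values. Of 27 SWI/SNF subunits, 22 had a term below 0, against 49.6% of all genes, with a median of -0.03. Among these subunits, 0 were lower and 0 higher at an unadjusted p under 0.05. Of 25 polycomb genes 3 were lower, Ezh2 among them and Bmi1, a subunit of the other polycomb complex, at -0.27 (-0.23 in OB and -0.31 in SEZ). Of 24 tubulin and microtubule genes 6 were lower, 4 of which the neuroblast list also holds, as with Dpysl3 at -0.33. Of 33 guidance genes 3 were lower: Prokr2, the repellent Slit1 at -0.23 and the ephrin Efnb2 at -0.19. Of 31 Wnt genes 3 were lower, the secreted modulator Sfrp2 at -0.64 (-1.13 in OB and -0.15 in SEZ) and the ligands Wnt7a at -0.24 and Wnt5a at -0.18. Of 22 Notch genes 0 were lower and 0 higher. Of 18 cholesterol synthesis genes 3 were lower (Hsd17b7 at -0.32, Sqle at -0.26 and Nsdhl at -0.16), and without cKO replicate 3 of both tissues 1 was lower and Hsd17b7 was at -0.16.

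Some lists of other cell types and pathways had medians as low as that of the DNA replication list. They were interferon genes (-0.12), microglia (-0.11), cholesterol synthesis (-0.08) and cortical and septal neurons (-0.07). Their part in the genotype term was not tested. Counts of terms below 0 are to be read against 49.6% of all genes. For astrocytes and neural stem cells, 14 of 26 markers had a term below 0, with a median of -0.01, and the 2 lower at an unadjusted p under 0.05 were Sox2 at -0.13 and Slc1a3 at -1.13. Slc1a3 was at -0.14 without cKO replicate 3 of both tissues, the arrays on which it was low, and 0 astrocyte markers were then lower at an unadjusted p under 0.05. Microglia markers had 20 of 22 below 0, medians of -0.17 in OB and -0.03 in SEZ, and 1 lower at an unadjusted p under 0.05 (Fcer1g at -0.25), and their mean level was 8.22 to 8.51 in OB cKO against 8.37 to 8.61 in OB control arrays and 8.63 to 8.81 in SEZ cKO against 8.60 to 8.91 in SEZ control arrays, so groups overlapped. Cortical and septal neuron markers had 2 of 15 lower (Neurod6 at -0.38 and Fezf2 at -0.20), and their mean level was 8.37 to 8.42 in SEZ cKO against 8.36 to 9.12 in SEZ control arrays. The count of genes lower in both tissues was 33 without SEZ control replicates 2 and 4. Counts of 1 in a list of 15 to 24 are near the 3.09% lower and 1.62% higher over all genes and are given as values, not as results about a cell type. Oligodendrocyte progenitors had 1 lower marker of 15 (Vcan at -0.31), myelin 1 of 18 (Gjc3 at -0.15), and striatal neurons 1 of 20 (Rxrg at -0.24). Bulb granule and periglomerular neurons had 1 lower of 24 (Calb1 at -0.33) and 1 higher (Gad1 at 0.13). Interferon genes had 0 of 19 lower and 0 higher at an unadjusted p under 0.05.

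**Figure D5:**
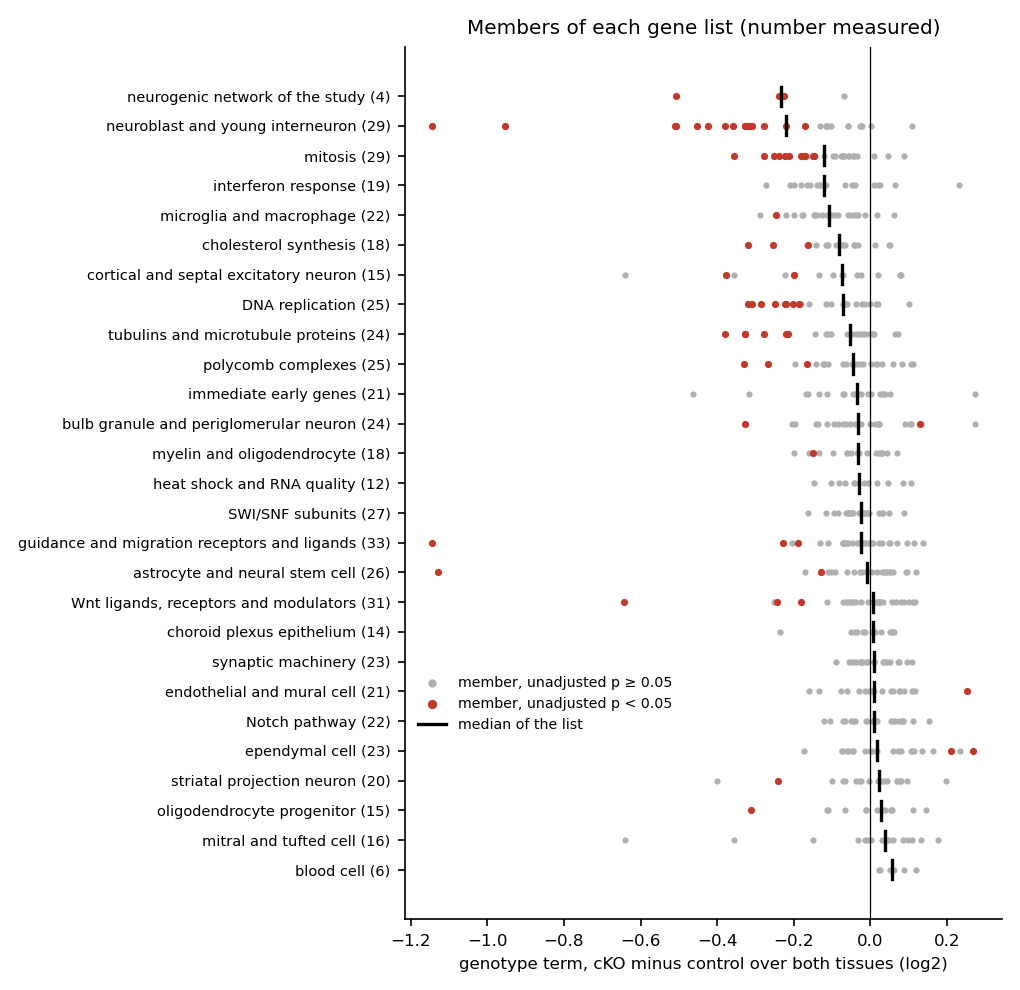
Genotype term (cKO minus control over both tissues, log2 scale) of each member of 27 gene lists, 1 point per gene, red where the unadjusted p was under 0.05, with a black bar at the median of the list and the number measured in brackets. The neurogenic network and the neuroblast list have the lowest medians, at -0.23 and -0.22, and no list has a median above 0.06.

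Higher genes were few and small. The 8 with the smallest p were Ak7, Chsy3, Ivd, Myadml2, Cit, Pi4k2b, Jchain and Hs6st3, with genotype terms between 0.15 and 0.25 and adjusted p from 0.910 to 0.973. Ak7, an adenylate kinase of motile cilia, was at 6.35, 6.33 and 6.27 in OB cKO against 6.04, 6.24, 6.08, 6.26 and 6.26 in control arrays, and at 8.54, 8.51 and 8.54 in SEZ cKO against 8.40, 8.11, 8.39, 8.17 and 8.18 in control arrays, so all cKO arrays were above all controls in both tissues. Jchain, the joining chain of immunoglobulins, had the same separation at a mean level of 4.83, below the lower quartile of all values. Hs6st3, a sulfotransferase of heparan sulfate, was the 1 gene higher in both tissues at an unadjusted p under 0.05, with 0.20 in OB and 0.19 in SEZ. Chsy3, a chondroitin synthase, had a term of 0.25, and Ivd, of leucine breakdown, of 0.24. Of 23 ependymal markers 2 were higher at an unadjusted p under 0.05, Ak7 and Dnah11 at 0.27, with a median of 0.02. The term of Dnah11 came from an OB effect of 0.51, with an SEZ effect of 0.03. Its level was 8.65 to 9.29 in OB control and 7.15 to 7.56 in SEZ control arrays. Ak7 and the mean of the list were instead higher in SEZ, so Dnah11 is not read as an ependymal marker here. Among 21 endothelial and mural markers 1 was higher, Acta2 at 0.25.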

How the data were processed

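RNA from 16 samples was measured on 1-colour Affymetrix arrays, and the deposited values are log2 expression per probe set, made by the authors with RMA in Affymetrix Expression Console 1.2, per the submitters' processing notes. The genome build behind the probe sets is not stated in the sources used. Of 35556 probe sets, 21789 had 1 gene symbol, 1621 several and 12146 none in the platform annotation. RefSeq (GRCm38.p6) held 21698 of the 21789. The brightest probe set of a gene was kept, giving 19938 genes. The rule named Smarca4, the 8 genes of smallest p per direction, up to 4 members of each list, the network, Slc1a3 and genes named in earlier work on single tissues.

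limma 3.58.1 in R 4.3.3 (lmFit, eBayes, two-sided, Benjamini-Hochberg) fitted tissue plus genotype, with 13 residual degrees of freedom, and, for tissue effects and their difference, 4 groups, with 12. The model was tested on simulated data with independent noise on each array, unlike the correlated arrays here. At a log2 lowering of 0.5, 81 of 100 shared changes and 0 of 100 changes in OB alone passed for the genotype term. For the mean of tissue effects in the 4-group fit these were 81 and 25, and at a lowering of 1, 85 of 100 changes in OB alone passed there. Members, rules and lists were chosen with earlier results of these data known. The labels call the samples biological replicates. Whether arrays of 1 number share a mouse is not stated. By Xist (6.08 in OB and 12.40 in SEZ) the arrays of cKO replicate 1 differ in sex, so they are not from 1 mouse. By label, OB control replicate 5 has 1 floxed copy and SEZ control replicate 5 has 0, so these are not from 1 mouse either. The random block below, and the mean of both tissues per number, still held each of these as a pair. Residual correlations of OB and SEZ arrays of 1 genotype and number were -0.06 for cKO replicate 1 and 0.17 to 0.57 for the other 7 pairs. Those of cKO and control arrays of 1 tissue and number ran from -0.41 to 0.61. As not every pair exceeded 0.1, numbers were not taken as pairs, although among OB and SEZ pairs only that of cKO replicate 1 fell short. The main fit therefore treats arrays that may share a mouse as independent. A random block of genotype and number (consensus correlation 0.19) was an alternative. Precision is set by how many arrays each group has. Alternatives were other fits, blocks, normalisations, filters, covariates and leaving out arrays. Of 28 lists, 546 of 589 symbols were measured. The blood cell, heat shock, immediate early, synaptic, choroid plexus, mitral cell and sex-linked lists had 0 members lower or higher at an unadjusted p under 0.05.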

Additional observations from a re-analysis of the deposited data

Results flagged for a closer look

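Among 140 control groups of single named genes, 8 held 1 array far from the other 4 by Dixon's gap rule, whose nominal rate is 1 in 20. B3gnt5 in OB control replicate 5 was at 7.12, against 6.63 to 6.65 in the others, and Gng2 in OB control replicate 1 was at 10.33. Kif11 in SEZ control replicate 1 was at 7.80, below the others, Vcan there was at 9.11, and Tpx2 in OB control replicate 1 was at 6.53. Myadml2 in SEZ control replicate 2 was at 6.90, Pi4k2b in SEZ control replicate 4 at 5.64, and Slc1a3 in OB control replicate 2 at 12.27, above the others.

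Islr2 had tissue effects that differed by 1.21 (SEZ minus OB, SE 0.153, adjusted p 0.0117 by limma).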

How the results depend on the processing

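Over 36 alternatives of the genotype term, 68 of 70 named genes kept their direction. Some of these, such as the 4-group fit, the random block and a looser threshold, leave a gene's estimate unchanged. Many others leave out 1 array, and the genes were mostly named for a small p, so kept direction is a weak check. No gene was higher at an adjusted p under 0.05 in any alternative. Lower genes numbered 6 in the 4-group fit, 1 with OB and SEZ averaged per number (Islr2) and 1 with the replicate block (Marcksl1, -0.56, adjusted p 0.0228). Leaving out 1 array gave 0 to 1, the 1 being Gng2 without SEZ cKO replicate 1 (-0.58). Alternatives chosen after seeing the data gave 3 after adjusting for the main component of spread inside groups (Cdca7, Hmgn5 and Zfp57) and 1 on the arrays with Xist at or below 9 (Mzt1). Genes with differing tissue effects numbered 0 to 2 when 1 array was left out.

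The counts of genes lower and higher in both tissues were added after seeing the data. They were 61 and 39 with the replicate block, 9 and 2 without cKO replicate 3 of both tissues, 46 and 7 without cKO replicate 1 of both tissues, 33 and 7 without SEZ control replicates 2 and 4, 24 and 6 with cyclic loess, and 27 and 0 with centred arrays. Leaving out 1 array gave 15 to 40 and 1 to 8.

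Smarca4 lay above 0 with the replicate block (0.0050), cyclic loess (0.036), array weights (0.0011) and on the arrays with Xist at or below 9 (0.040), and ran from -0.019 to 0.016 when 1 array was left out. Pax6 lay at 0.14 on the arrays with Xist at or below 9 and ran from -0.14 to 0.0050 when 1 array was left out, the highest being without SEZ cKO replicate 1. The cause was not tested.

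As limits, each tissue has 3 cKO arrays, dim genes lie near the array's lower range, and the replicate numbers are not shown to pair mice.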
